A study of Mus musculus with 17 samples.

Results

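The 10 genes described here are core and naive pluripotency genes: Pou5f1, Nanog, Zfp42, Utf1, Dppa5a, Esrrb, Klf2, Klf4, Tfcp2l1 and Dppa4. They were chosen by symbol, each symbol matched 1 Ensembl gene, and together they are 10 of the 49671 genes in each count table. All 10 passed the filter on low counts, which kept 17813 genes. RNA was measured with SMART-Seq v2, a full-length cDNA method, in 17 libraries of R1 cells, a mouse embryonic stem cell line whose genotype is given as FOXA2-Venus. The series concerns floor plate formation in neural tube organoids, and FOXA2 marks the floor plate at the ventral midline.

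The groups were FOXA2-positive and FOXA2-negative cells of 3 treatments. BMP4 cells had 18 h of RA, 6 h without treatment and 8 h of BMP4, a bone morphogenetic protein. LDN cells had 18 h of RA, 6 h without treatment and 8 h of LDN, a compound that the labels name no further. RA cells had 18 h of RA. RA was thus common to every group, and an effect of RA itself cannot be read from these libraries. Each group had 3 libraries except FOXA2-positive LDN, which had the libraries numbered 2 and 3; a library numbered 1 was not analysed here. RA libraries had no further hours after RA in their labels, so that treatment and time cannot be told apart between RA and the other arms. All cells come from 1 line, and the labels do not say how the fractions were separated or whether a group's libraries are separate cultures. The p-values therefore cover the variation among these libraries, which may be technical. In such bulk samples, fewer cells of a type and less RNA per cell cannot be told apart.

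Pluripotent cells keep their state through a network of transcription factors. OCT4, the product of Pou5f1, binds DNA together with SOX2 and, with NANOG, forms its core. Naive pluripotency, the state of the preimplantation epiblast and of mouse embryonic stem cells, adds ESRRB, KLF2, KLF4, TFCP2L1 and the marker REX1 (Zfp42), which are switched off early when cells leave that state, whereas OCT4 normally lasts longer. Neural differentiation under retinoic acid normally switches off OCT4 and NANOG, while SOX2 stays on in neural progenitors.

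Depth was even, with 8435845 to 10796136 gene counts per library. Levels are given as counts scaled to library size (CPM) after normalisation by the trimmed mean of M-values (TMM). Foxa2 itself ranged from 18.4 to 44.2 CPM over the FOXA2-positive libraries and from 0 to 2.93 CPM over the FOXA2-negative libraries, so that its level went with the label in all 17. Both RA libraries numbered 1 stood apart by their mitochondrial share, 7.43% in FOXA2-positive and 6.94% in FOXA2-negative cells, against 3.50% to 4.81% in the other libraries. The differences between fractions in RA are given without them as well. The labels call all cells embryonic stem cells: Pou5f1 was detected in each of the 17 libraries, whereas Nanog had 0 counts in 3 of them.

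Promoter windows of these genes were searched for short binding sequences, and none of those sequences occurred in every gene with a window. A window of 250 bases before to 50 bases after a start site was found in RefSeq (GRCm38.p6) for 8 of the 10 genes, Dppa5a and Dppa4 being without one. The windows of Nanog (chr6:122707239-122707538, plus strand), Zfp42 (chr8:43306960-43307259, minus strand) and Pou5f1 (chr17:35505782-35506081, plus strand) are printed 5′ to 3′ as examples of genes called lower in FOXA2-positive cells of every treatment. Utf1 was also called lower in every treatment and is not printed. Its window held GC boxes but no octamer, SOX or KLF match. Capitals mark the octamer, SOX, KLF and GC-box letters defined after the sequences.
Nanog: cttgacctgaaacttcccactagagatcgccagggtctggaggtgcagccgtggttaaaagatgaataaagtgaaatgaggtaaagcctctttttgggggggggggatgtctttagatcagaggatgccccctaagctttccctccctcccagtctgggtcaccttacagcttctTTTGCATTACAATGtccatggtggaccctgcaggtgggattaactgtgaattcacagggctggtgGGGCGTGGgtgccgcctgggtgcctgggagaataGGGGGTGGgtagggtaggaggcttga
Zfp42: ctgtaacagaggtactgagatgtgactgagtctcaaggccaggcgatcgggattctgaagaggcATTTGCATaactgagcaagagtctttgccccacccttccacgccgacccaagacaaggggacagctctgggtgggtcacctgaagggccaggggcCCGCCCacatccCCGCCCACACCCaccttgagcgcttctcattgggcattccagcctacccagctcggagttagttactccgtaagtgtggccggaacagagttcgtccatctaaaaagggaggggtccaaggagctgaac
Pou5f1: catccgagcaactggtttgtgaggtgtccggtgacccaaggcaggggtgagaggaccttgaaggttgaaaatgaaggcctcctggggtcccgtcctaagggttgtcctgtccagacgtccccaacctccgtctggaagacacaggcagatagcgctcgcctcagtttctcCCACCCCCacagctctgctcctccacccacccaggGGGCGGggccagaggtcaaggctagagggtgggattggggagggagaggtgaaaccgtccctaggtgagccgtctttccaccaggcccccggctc
The letters were searched on both strands. The octamer, the binding sequence of OCT4, was taken as ATTTGCAT, and its core as TTTGCAT. The SOX core was searched as CATTGT, the KLF site as GGGNGTGG and the GC box as GGGCGG, and some KLF and GC-box matches overlap. The Nanog window held TTTGCATTACAATG, 75 bases before the start site, where an octamer core and a SOX core lie side by side. This octamer-SOX composite, searched with any base between the cores, occurred in 2 of 32851 mouse windows (0.00609%), and both belong to Nanog, around start sites that lie close together. Zfp42 held the octamer 186 bases before its start, a match found in 1.74% of all windows. The printed Pou5f1 window held neither the octamer core nor the SOX core, but a KLF match and a GC box. Another Pou5f1 window, around a start site inside the gene (chr17:35508557-35508856, plus strand), held a SOX core 158 bases before that start. A KLF match occurred in 17.6% and a SOX core in 12.6% of all windows. GC boxes numbered 4 in the Utf1, 4 in the Klf4 and 2 in the Klf2 window, and 35.7% of all windows held at least 1. These are matches of letters and say nothing of binding in these cells.

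FOXA2-positive cells held less RNA of 9 of the 10 genes. Averaged over the 3 treatments, Pou5f1, Nanog, Zfp42, Utf1, Dppa5a, Esrrb, Klf2, Tfcp2l1 and Dppa4 were lower in FOXA2-positive than in FOXA2-negative cells (adjusted p under 0.05, edgeR's quasi-likelihood test with Benjamini-Hochberg adjustment), whereas 4.5% of all genes tested were called lower. Klf4 was not called (log2 fold change -0.01 ± 0.49, SE, adjusted p = 1). Within single treatments, the same 5 genes, Pou5f1, Nanog, Zfp42, Utf1 and Dppa5a, were called lower in RA, BMP4 and LDN alike, against a background of 0.82%, 0.601% and 0.707% of genes. No member was called higher in FOXA2-positive cells by edgeR, against 0.371%, 0.32% and 0.286% of all genes in the 3 treatments and 3.12% on average. Members with an unadjusted p under 0.05 numbered 9, 9 and 8 in RA, BMP4 and LDN. The median log2 fold change of the 10 genes, averaged over treatments, was -1.93, against -0.03 over all 17813 genes tested. The 10 genes were chosen with earlier results of these data known, so these background shares are descriptive and test nothing about the list.

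**Figure D1:**
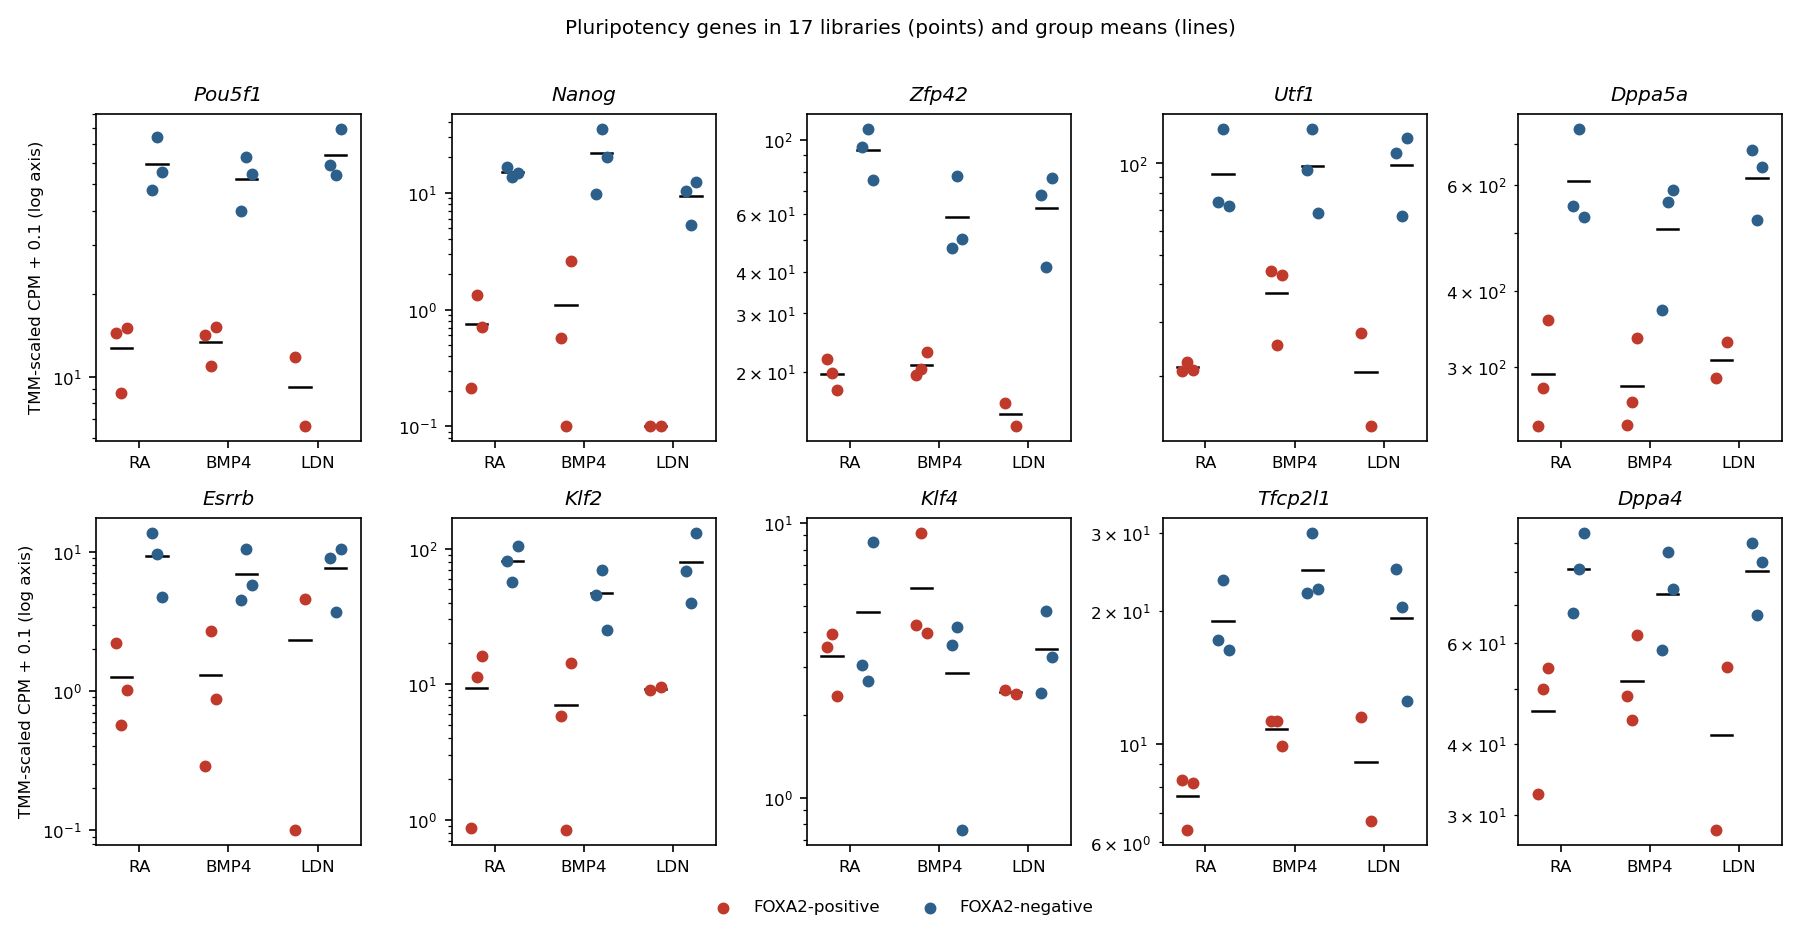
TMM-scaled CPM plus 0.1 of each gene in every library (points) with the group mean (line), on log axes that differ between panels; FOXA2-positive libraries stand left of FOXA2-negative libraries in each treatment. For Pou5f1, Nanog, Zfp42, Utf1, Dppa5a, Klf2 and Tfcp2l1 every FOXA2-negative library lies above the FOXA2-positive libraries of its treatment, and for Klf4 the fractions overlap in all 3.

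Among the core factors, Pou5f1 (ENSMUSG00000024406, GRCm38 chromosome 17, 35506018 to 35510772, plus strand) measured 14.3, 8.63 and 14.9 CPM in FOXA2-positive RA libraries 1 to 3, against 47.7, 74.1 and 55.3 CPM in FOXA2-negative ones. After BMP4 its levels were 14.1, 10.8 and 15 CPM in FOXA2-positive against 39.9, 62.5 and 54.2 CPM in FOXA2-negative libraries. After LDN they were 11.7 and 6.5 CPM in FOXA2-positive against 58.6, 54.1 and 79.5 CPM in FOXA2-negative libraries. The lowest FOXA2-negative library of the series was thus above the highest FOXA2-positive library, and the gene stayed well detected in every FOXA2-positive library. FOXA2-positive cells kept 21.4%, 25.5% and 14.2% of the FOXA2-negative level in RA, BMP4 and LDN, with log2 fold changes of -2.23 ± 0.29, -1.97 ± 0.29 and -2.80 ± 0.36 (SE; adjusted p = 0.000106, 0.000671 and 6.16e-05, edgeR). An antisense gene that overlaps Pou5f1, Gm19553, had 137 counts over all libraries against 6094 for Pou5f1, and without a stated strand setting their reads cannot be told apart.

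Nanog (ENSMUSG00000012396, chromosome 6, 122707489 to 122714633, plus strand) was close to absent from FOXA2-positive cells. It had 0.111, 1.22 and 0.614 CPM in FOXA2-positive RA libraries, from 1, 13 and 6 counts, against 16.6, 13.6 and 14.6 CPM in FOXA2-negative ones. BMP4 libraries had 0.472, 0 and 2.52 CPM in FOXA2-positive against 9.66, 35.1 and 20.1 CPM in FOXA2-negative cells. Both FOXA2-positive LDN libraries were at 0 counts, against 10.3, 5.15 and 12.3 CPM in FOXA2-negative LDN libraries. No FOXA2-positive library reached the lowest FOXA2-negative one. The fraction kept was 4.34% in RA and 4.62% in BMP4 (log2 fold changes -4.48 ± 0.89 and -4.41 ± 0.87, SE; adjusted p = 0.00839 and 0.00928, edgeR). In LDN the difference was at least 57.8-fold lower in FOXA2-positive cells, with the 0 replaced by 3 counts for the group as a whole (adjusted p = 0.00501, edgeR). Without both RA libraries numbered 1 the RA call of Nanog ended (adjusted p = 0.0858), and leaving out FOXA2-positive RA library 3 (0.0554), FOXA2-positive BMP4 library 1 (0.0714), FOXA2-negative BMP4 library 2 (0.0793) or either FOXA2-positive LDN library (0.0880 and 0.0733) ended the call of that treatment. Averaged over treatments it was called under all 24 alternatives. The annotation lists pseudogenes close to Nanog in sequence, and how reads mapping to several places were treated is not stated.

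Zfp42 (ENSMUSG00000051176, chromosome 8, 43295063 to 43306980, minus strand), whose product REX1 is the standard reporter of the naive state, measured 21.8, 19.7 and 17.5 CPM in FOXA2-positive RA libraries, against 95.4, 108 and 75.6 CPM in FOXA2-negative ones. After BMP4 it measured 19.5, 20.3 and 22.9 CPM in FOXA2-positive against 47.2, 78.0 and 50.3 CPM in FOXA2-negative libraries. After LDN it measured 16.0 and 13.6 CPM in FOXA2-positive against 68.4, 41.4 and 76.9 CPM in FOXA2-negative libraries. The 8 FOXA2-positive libraries lay close together, whereas the FOXA2-negative ones spread more widely and never overlapped them. The log2 fold changes were -2.24 ± 0.26, -1.48 ± 0.25 and -2.07 ± 0.30 in RA, BMP4 and LDN (SE; adjusted p = 1.35e-05, 0.00249 and 0.00037, edgeR). Pou5f1 and Zfp42 were called lower in RA, BMP4 and LDN under every alternative run, library left out or setting changed.

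Genes of chromosome 8 with at least 20 CPM were lower in FOXA2-positive cells as a body, with medians of -0.31 in RA, -0.30 in BMP4 and -0.27 in LDN over 407 genes, and Zfp42 and Klf2 lie there. Genes of chromosome 6, where Nanog lies, were shifted the other way, with medians of 0.31, 0.34 and 0.24 over 335 genes. With each library's chromosome shift entered as an offset, Zfp42 was at -1.92, -1.20 and -1.79 in RA, BMP4 and LDN (adjusted p = 0.000138, 0.0168 and 0.00203, edgeR). Nanog then stood at -4.77 in RA and -4.76 in BMP4, and no call of the 10 genes changed.

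Utf1 (ENSMUSG00000047751, chromosome 7, 139943789 to 139945112, plus strand) encodes a chromatin-bound factor of undifferentiated embryonic cells. It measured 20.6, 22.1 and 20.8 CPM in FOXA2-positive RA libraries, against 74.8, 130 and 72.2 CPM in FOXA2-negative ones. After BMP4 it was at 44.1, 25.1 and 42.8 CPM in FOXA2-positive against 95.4, 130 and 68.4 CPM in FOXA2-negative libraries, and after LDN at 27.5 and 13.5 CPM in FOXA2-positive against 108, 67.0 and 121 CPM in FOXA2-negative libraries. The fractions did not overlap in any treatment. Log2 fold changes were -2.13 ± 0.30, -1.39 ± 0.30 and -2.26 ± 0.36 (SE; adjusted p = 0.000319, 0.0168 and 0.000982, edgeR). The BMP4 call ended without FOXA2-negative library 2 (0.134) or FOXA2-positive library 2 (0.127), and the LDN call without FOXA2-positive library 3 (0.0504).

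Dppa5a (ENSMUSG00000060461, chromosome 9, 78367052 to 78368177, minus strand), which encodes a KH-domain RNA-binding protein of pluripotent cells, was the most abundant of the 10 and kept the most RNA among the 5 called genes. It measured 239, 277 and 359 CPM in FOXA2-positive RA libraries, against 553, 742 and 530 CPM in FOXA2-negative ones. After BMP4 it was at 240, 262 and 335 CPM in FOXA2-positive against 372, 562 and 587 CPM in FOXA2-negative libraries, and after LDN at 287 and 329 CPM in FOXA2-positive against 684, 524 and 641 CPM in FOXA2-negative libraries. The fractions were separate in each treatment, although the lowest FOXA2-negative BMP4 library came close to the highest FOXA2-positive one. FOXA2-positive cells kept 47.9% to 55.0% of the FOXA2-negative level (log2 fold changes -1.06 ± 0.18, -0.86 ± 0.18 and -1.0 ± 0.21, SE; adjusted p = 0.00232, 0.0168 and 0.0145, edgeR). Its RA call held with each RA library left out, whereas its call held in 2 of 6 such fits after BMP4 and 1 of 5 after LDN. The BMP4 call ended without FOXA2-positive library 1 or 2 or FOXA2-negative library 2 or 3 (adjusted p = 0.0738 to 0.135), and the LDN call without FOXA2-positive library 2 or 3 or FOXA2-negative library 1 or 3 (0.0524 to 0.193). Per kilobase of exon, FOXA2-negative RA cells held 983 CPM of Dppa5a, 75.3 of Utf1, 49.5 of Zfp42, 26.3 of Pou5f1 and 6.67 of Nanog. Annotated copies of Dppa5a could share its reads.

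Esrrb and Tfcp2l1 were lower in FOXA2-positive cells on average over treatments, but were not called in any single treatment. Esrrb, an orphan nuclear receptor that sustains self-renewal, had 2.10, 0.469 and 0.921 CPM in FOXA2-positive RA libraries, against 13.6, 9.50 and 4.61 CPM in FOXA2-negative ones. It ranged from 0.189 to 2.62 CPM in FOXA2-positive against 4.42 to 10.3 CPM in FOXA2-negative BMP4 libraries. After LDN, FOXA2-positive libraries 2 and 3 had 0 and 4.45 CPM, so that the fractions overlapped, as FOXA2-negative ones had 8.91, 3.59 and 10.3 CPM. No single treatment passed the threshold (adjusted p = 0.252, 0.379 and 0.571), but the average did (-2.42 ± 0.65, adjusted p = 0.0195, edgeR). Without FOXA2-positive LDN library 2 the average was -2.08 (0.0489) and the LDN value -0.75 (0.898). Without library 3, which leaves that group at 0 counts, the fitted values were -4.91 on average (0.00115) and -9.23 in LDN (0.102), which depend on the prior count. Tfcp2l1, a transcription factor of the LIF response, had 8.19, 6.29 and 8.08 CPM in FOXA2-positive against 17.1, 23.4 and 16.2 CPM in FOXA2-negative RA libraries. Its fractions were separate in all 3 treatments and its average change was -1.20 ± 0.22 (adjusted p = 0.000665, edgeR), with 0.0719, 0.129 and 0.28 in RA, BMP4 and LDN alone. DESeq2 called it in RA and BMP4 (adjusted p = 0.00731 and 0.0209).

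Klf2 and Klf4 encode related zinc-finger factors that stand in for each other in naive cells, and in these libraries their values were unlike. Klf2 had 0.774, 11.1 and 16.0 CPM in FOXA2-positive RA libraries, against 81.6, 56.3 and 104 CPM in FOXA2-negative ones. BMP4 libraries had 5.67, 0.733 and 14.3 CPM in FOXA2-positive against 45.7, 69.3 and 25.1 CPM in FOXA2-negative cells, and LDN libraries had 8.90 and 9.39 CPM in FOXA2-positive against 68.0, 39.4 and 131 CPM in FOXA2-negative cells. Every FOXA2-negative library was above every FOXA2-positive one, and 11.5% to 14.7% of the FOXA2-negative level was kept. The average change was -3.00 ± 0.59 (adjusted p = 0.00858, edgeR), yet single treatments missed the threshold (0.208, 0.286 and 0.305), and the average missed it without FOXA2-positive LDN library 2 (0.0597) or 3 (0.0602). Adding a block for same-numbered libraries of a treatment ended the call too (-3.15, adjusted p = 0.0951). DESeq2 called Klf2 in RA (-3.13, adjusted p = 0.0328) but not in BMP4 or LDN (0.0795 and 0.0691). With only the groups compared in the fit, edgeR called it in LDN (-3.12, adjusted p = 0.0144). Klf4 measured 3.43, 3.85 and 2.25 CPM in FOXA2-positive RA libraries, against 2.93, 2.55 and 8.45 CPM in FOXA2-negative ones. After BMP4 it measured 4.16, 9.11 and 3.88 CPM in FOXA2-positive against 3.49, 4.09 and 0.660 CPM in FOXA2-negative libraries. The fractions overlapped in each treatment, the levels were low everywhere, and the log2 fold changes of -0.54, 1.06 and -0.53 each had an SE of at least 0.85. The difference between the changes of Klf2 and Klf4 was not tested.

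Dppa4, a chromatin-associated protein gene of early embryos and germ cells, had the smallest average change among the 9 genes. It had 32.5, 49.8 and 54.2 CPM in FOXA2-positive RA libraries, against 67.7, 80.9 and 93.7 CPM in FOXA2-negative ones, which did not overlap. In BMP4 the ranges overlapped, at 43.9 to 61.9 CPM in FOXA2-positive against 58.2 to 86.8 CPM in FOXA2-negative libraries. FOXA2-positive LDN libraries had 28.1 and 54.5 CPM, below FOXA2-negative ones at 90.0, 67.3 and 83.1 CPM. The average was -0.76 ± 0.15 (adjusted p = 0.0014, edgeR), and RA alone had an adjusted p of 0.119. In RA, where libraries of the same number vary together, the fit with replicate number as a block called it (adjusted p = 0.0217).

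In ranges rather than tests, 9 of the 10 genes were separate between fractions and lower in FOXA2-positive cells in RA, 8 in BMP4 and 8 in LDN. The same pattern was found for 7.99%, 7.31% and 14.7% of all genes. For Pou5f1, Nanog, Zfp42, Utf1, Dppa5a, Klf2 and Tfcp2l1 the 3 FOXA2-negative groups ranked above the 3 FOXA2-positive groups by mean, with no overlap at the border. Within a fraction, neighbouring groups in that order overlapped, except in places for Nanog, Zfp42 and Utf1, so the order of treatments is mostly not resolved. The summed level of the 10 genes was 342 to 494 CPM in FOXA2-positive against 971 to 1240 CPM in FOXA2-negative RA libraries, with 386 to 509 and 697 to 1070 CPM in BMP4 and 393 to 440 and 827 to 1170 CPM in LDN libraries. Most of each sum is Dppa5a. Without both RA libraries numbered 1, the log2 fold changes between fractions in RA were -2.46 for Pou5f1, -2.30 for Zfp42, -2.24 for Utf1 and -1.0 for Dppa5a (adjusted p = 0.000841, 0.000569, 0.00434 and 0.0236, edgeR). Nanog at -3.92, Esrrb at -3.32, Klf2 at -2.57, Tfcp2l1 at -1.46, Klf4 at -0.85 and Dppa4 at -0.75 were not called, and no member was called between BMP4 or LDN and RA or in an interaction with RA.

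Within a fraction, no treatment difference of these genes passed the test. No member was called in any of the 6 comparisons of BMP4, LDN and RA within FOXA2-positive or FOXA2-negative cells, by edgeR or by DESeq2, and 6 of the 60 single values had an unadjusted p under 0.05. The share of all genes called in either direction was 0.0786%, 0.208% and 0.32% for BMP4 against RA, LDN against RA and BMP4 against LDN in FOXA2-positive cells. In FOXA2-negative cells it was 0.0786%, 0.0393% and 0.196%. Leaving aside Nanog against a group at 0, log2 fold changes ran from -0.88 to 1.29. Esrrb, Klf2 and Klf4 had SEs of 0.85 to 1.13, so a change of that size could not be resolved for them.

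Utf1 in FOXA2-positive cells had an unadjusted p under 0.05 for BMP4 against RA. Its 44.1, 25.1 and 42.8 CPM after BMP4 lay above the 20.6, 22.1 and 20.8 CPM of RA, as 5.69% of all genes did, a log2 fold change of 0.82 ± 0.30 (unadjusted p = 0.0108, adjusted p = 0.77, edgeR). Against LDN, at 27.5 and 13.5 CPM, the change was 0.86 ± 0.34 (adjusted p = 0.547) and the ranges overlapped. Klf4 and Tfcp2l1 in FOXA2-positive cells also lay higher after BMP4 than in RA without overlap, so that 3 of the 10 genes did. Neither was called (adjusted p = 0.98 and 0.866, edgeR). Utf1 levels in FOXA2-negative cells averaged 98.0 ± 31.0 CPM after BMP4, 98.6 ± 28.2 CPM after LDN and 92.4 ± 32.7 CPM in RA (SD, n = 3 each). Zfp42 in FOXA2-negative cells averaged 58.5 ± 16.9 CPM after BMP4 and 62.2 ± 18.5 CPM after LDN, against 93.1 ± 16.4 CPM in RA (SD, n = 3 each). These were changes of -0.67 ± 0.25 and -0.58 ± 0.25 (adjusted p = 0.598 and 0.647, edgeR). Both were past an unadjusted p of 0.05 (0.0114 and 0.0257) and neither passed the adjustment.

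Nanog in FOXA2-positive cells was compared between treatments at few counts. FOXA2-positive cells had 0 counts after LDN and 20 in RA, at least 4.27-fold lower in LDN (adjusted p = 0.301, edgeR), and 31 counts after BMP4 (BMP4 against LDN, adjusted p = 0.256). In FOXA2-negative cells Nanog averaged 21.6 ± 12.8 CPM after BMP4, 9.23 ± 3.67 CPM after LDN and 14.9 ± 1.53 CPM in RA (SD, n = 3 each), with BMP4 against LDN at 1.23 ± 0.75 (adjusted p = 0.752, edgeR). LDN libraries lay below RA libraries without overlap there, a pattern that 6.27% of all genes shared.

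**Figure D2:**
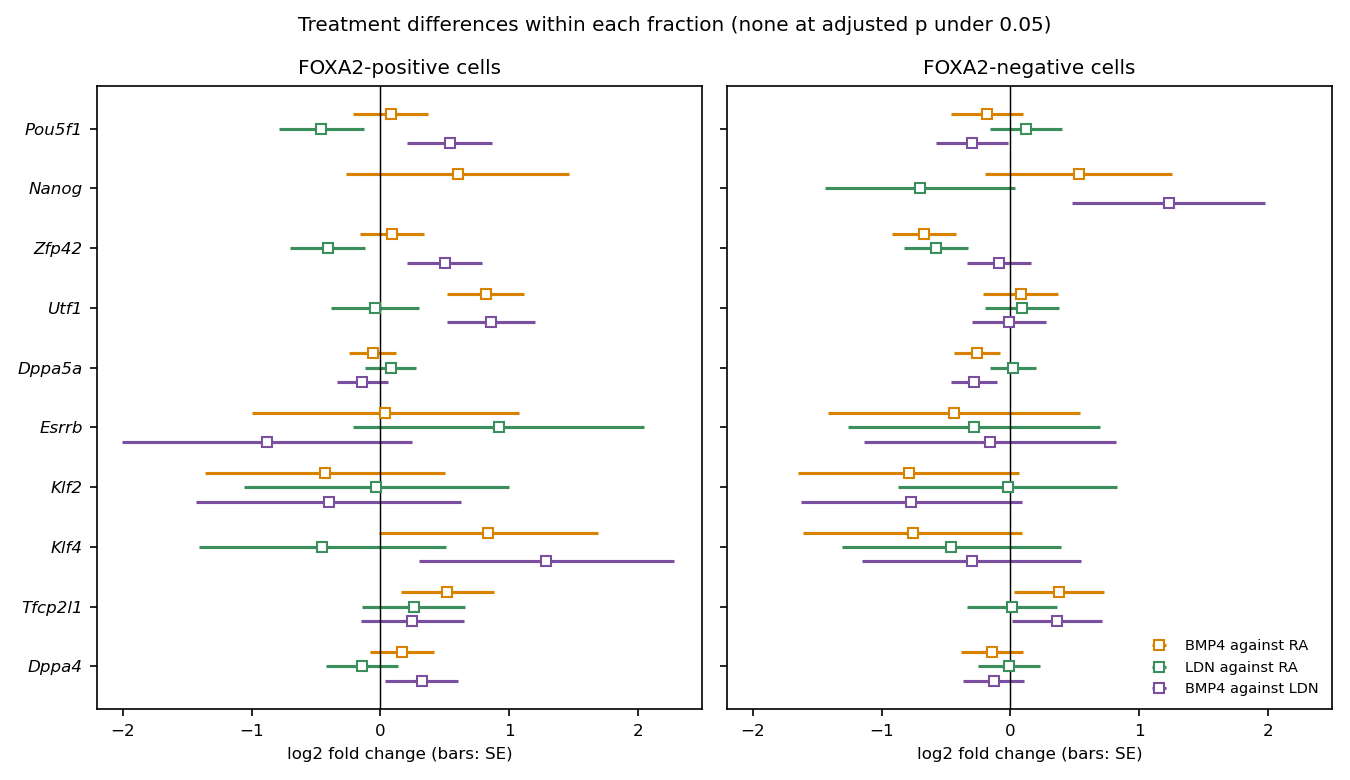
Log2 fold changes between treatments within FOXA2-positive cells (left) and FOXA2-negative cells (right), with bars of 1 SE; Nanog in FOXA2-positive cells is drawn for BMP4 against RA only, because the LDN libraries had 0 counts. No point had an adjusted p under 0.05, and the bars of Nanog, Esrrb, Klf2 and Klf4 are the widest.

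Whether the difference between fractions itself changed with treatment was tested as an interaction, and no member was called in any of the 3 such contrasts by edgeR or DESeq2, where 0.00561%, 0.00561% and 0.0337% of genes were called (BMP4 against RA, LDN against RA and BMP4 against LDN). For BMP4 against RA the interaction was positive for all 10 members, with a median of 0.34 against 0.00 over all genes. For BMP4 against LDN it was positive for 8 and negative for 2 (median 0.52, against 0.03). For LDN against RA it was positive for 5 and negative for 5 (median 0.00, against -0.04). The members share the same libraries, and a common direction was not tested. In each contrast 1 member had an unadjusted p under 0.05. For Zfp42 the difference was smaller after BMP4 than in RA by 0.76 ± 0.35 (unadjusted p = 0.0408, adjusted p = 1, edgeR). For Nanog the LDN libraries at 0 gave unadjusted p-values of 0.0309 against RA and 0.0274 for BMP4 against LDN (adjusted p = 0.86 and 0.78). For Pou5f1, at 14.2% of the FOXA2-negative level after LDN and 25.5% after BMP4, the interaction of BMP4 against LDN was 0.83 ± 0.43 (adjusted p = 0.812, edgeR).

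Other genes of the network followed in part. Of 24 further pluripotency genes, 17 were lower and 0 higher in FOXA2-positive cells averaged over treatments, with a median log2 fold change of -1.95. Over all genes tested, 4.5% were called lower and 3.12% higher, with a median of -0.03. Of the 24, 3 had 0 counts in FOXA2-positive RA libraries, 2 in BMP4 and 5 in LDN, against 0 in each FOXA2-negative group. Genes at or near 0 in FOXA2-positive cells passed the low-count filter through FOXA2-negative libraries. For them a lower value was largely fixed in advance, so the counts of lower genes and the median are no support. Single treatments called 4 of the 24 lower in RA, 4 in BMP4 and 5 in LDN, against 0.82%, 0.601% and 0.707% of all genes. The 5 with the smallest p were L1td1 (-1.90 ± 0.22, adjusted p = 5.65e-06), which encodes an RNA-binding protein, the DNA demethylase gene Tet2 (-1.50 ± 0.20, 1.2e-05), the growth factor gene Fgf4 (-3.56 ± 0.52, 5.13e-05), Dppa2, the partner of Dppa4 (-1.70 ± 0.25, 5.8e-05), and the signalling ligand gene Nodal (-2.98 ± 0.45, 8.14e-05; SE, edgeR). Fgf4, a target of OCT4 and SOX2 in embryonic stem cells, averaged 2.34 ± 0.772 CPM in FOXA2-positive against 12.8 ± 6.36 CPM in FOXA2-negative cells of RA, and 1.67 ± 1.21 against 22.1 ± 4.74 CPM in BMP4 cells (SD, n = 3 each). Tdgf1, the co-receptor of Nodal, had 0 counts in all FOXA2-positive RA and LDN libraries. The summed level of the 24 genes did not follow these calls. It overlapped between fractions in RA, at 2600 to 4370 CPM in FOXA2-positive against 3000 to 5220 CPM in FOXA2-negative libraries. It also overlapped in BMP4 (4910 to 6120 against 4760 to 6530 CPM). In LDN the sum was higher in FOXA2-positive libraries (5030 to 5850 against 3910 to 4670 CPM).

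The 7 genes of that list that were not called included factors that neural progenitors also use. Sox2, the partner of OCT4, averaged 107 ± 20.7 CPM in FOXA2-positive against 100 ± 25.1 CPM in FOXA2-negative cells of RA (SD, n = 3 each), and its average log2 fold change was 0.17 ± 0.12 (adjusted p = 0.469, edgeR). The zinc-finger gene Sall4 was at -0.02 ± 0.13 (adjusted p = 1) and the RNA-binding protein gene Lin28a at 0.31 ± 0.22 (0.486). Klf5 (-0.32), Tet1 (-0.15) and the low-count gene Tcl1 (-3.84) were also among them. Tbx3, a T-box factor of naive cells that BMP signalling also induces, was called between treatments. It averaged 170 ± 47.8 CPM in BMP4 (n = 3), 4.74 ± 0.399 CPM in LDN (n = 2) and 24.7 ± 0.414 CPM in RA (SD, n = 3) FOXA2-positive cells, with BMP4 against RA at 2.78 (adjusted p = 1.59e-07, edgeR) and LDN against RA at -2.37 (9.99e-05). The start of Tbx3 overlaps Tbx3os1, annotated as its opposite-strand transcript, and their shared reads cannot be told apart. Klf5 after LDN was lower than in RA in FOXA2-positive cells (-1.34, adjusted p = 0.0426). FOXA2-negative cells had calls too: 1 of the 24 genes was higher for BMP4 against RA and 1 for BMP4 against LDN. Of all genes, 0.0561% and 0.124% were. The interaction of fraction with BMP4 against LDN was called for 1 of the 24, and for 0.0337% of all genes.

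**Figure D3:**
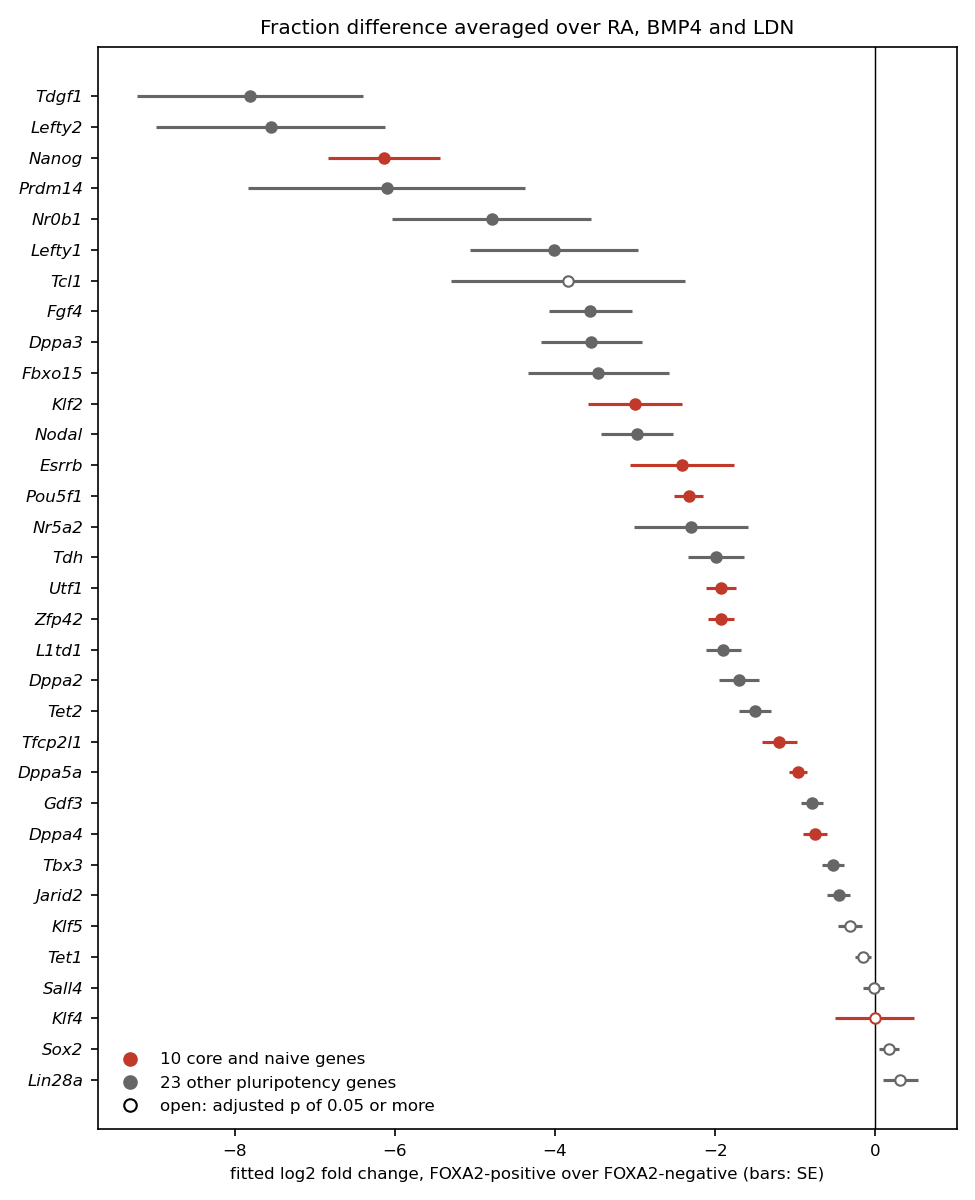
Fitted log2 fold change averaged over RA, BMP4 and LDN (x axis, bars of 1 SE) of the 10 genes (red) and 23 of the 24 further pluripotency genes (grey), with open points where the adjusted p was 0.05 or more. Most points lie left of 0, Sox2, Sall4 and Lin28a lie near it, and the fitted values farthest left, such as Tdgf1, Lefty2 and Nanog, rest on groups at or near 0 counts.

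By family, all Dppa genes tested were called lower on average, and most Klf genes were not called. Averaged over treatments, 4.5% of all genes were called lower and 3.12% higher, with a median of -0.03. The Dppa genes tested were 4 of 5, with Dppa3 at -3.55 ± 0.63 (adjusted p = 0.00255, edgeR). Dppa4 and Dppa5a belong to the 10 genes and Dppa2 and Dppa3 to the 24 further ones, so these calls repeat those above. Of 11 Klf genes, Klf2, Klf9 (-1.33 ± 0.16, adjusted p = 6.21e-06) and Klf6 (-0.57 ± 0.10, 0.000662) were called lower and 0 higher. The average log2 fold changes of the 11 were negative for 10 and positive for 1, with a median of -0.22. Genes of the formative and primed states, which follow naive pluripotency, were mixed: 3 of 10 tested were lower (Otx2, Dnmt3a and Dnmt3b) and Sox11 was higher (0.78 ± 0.15, adjusted p = 0.00105, edgeR), with a median of -0.29. Lef1 (2.39, adjusted p = 0.000469) and Sox3 (-1.95, 0.0316) of that list differed for BMP4 against LDN in FOXA2-positive cells (edgeR). Of the 6 genes of the LIF pathway, which sustains naive cells in culture, 0 were called by edgeR on average or in any treatment, and 3 had an unadjusted p under 0.05 on average. Stat3 stood at -0.75 ± 0.29 (unadjusted p = 0.0173, adjusted p = 0.131) and Lifr at 0.64 ± 0.25 (0.131). The 10 genes linked to exit from pluripotency had a median of -0.32, with 7 negative and 3 positive values and 0 called lower. Among them Nr2f2 (0.71 ± 0.17, adjusted p = 0.0117) and Nr6a1 (0.41 ± 0.12, 0.0425), nuclear receptor genes that repress Pou5f1, were higher, and Nr2f2 was lower after BMP4 than after LDN in FOXA2-positive cells (-1.47, 0.0363, edgeR).

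Over the 17 libraries the 9 genes varied together. Pearson correlations of log2 CPM between pairs of them ran from 0.57 to 0.95, with Klf4 at -0.28 to -0.04 with the rest. These values share the split between fractions. With group means removed, the 36 pairs ran from -0.35 to 0.83 with a median of 0.28, the highest being Nanog with Klf2. FOXA2-positive RA library 1 and BMP4 library 2 were the low libraries of their groups for both genes. The genes most like Pou5f1 over the 17 libraries, among 10615 averaging 5 CPM or more, were Hsd17b14 (0.960), Gpx4 (0.953), Elf3 (0.952), Zfp42 (0.946) and Utf1 (0.941). Those most like Nanog were C130073F10Rik (0.95), Mylpf (0.949), Aqp3 (0.946), Spp1 (0.944) and Ttc39b (0.934). Those most like Zfp42 were Mylpf (0.962), 1110008L16Rik (0.947), Pou5f1 (0.946), Gpx4 (0.945) and Tcea3 (0.943).

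Markers of other cell types also differed between the fractions. Averaged over treatments, 4.5% of all genes tested were called lower in FOXA2-positive cells and 3.12% higher. Genes of 2-cell-like cells, a rare state in embryonic stem cell cultures, were lower in FOXA2-positive cells in 6 of 6 tested of 8, averaged over treatments. Being near 0 in FOXA2-positive cells, such genes passed the low-count filter through FOXA2-negative libraries. A lower value was thus largely fixed in advance, and that count is no support. The summed level of the 8 genes was 0 to 2.06 CPM in FOXA2-positive against 135 to 213 CPM in FOXA2-negative RA libraries. It was 0 to 1.47 against 66.8 to 173 CPM in BMP4, and 0 to 0.12 against 7.55 to 71.4 CPM in LDN. Zscan4c, their defining marker, had 1 count in FOXA2-positive RA libraries and 0 in FOXA2-positive BMP4 and LDN libraries, and copies of this family may share reads. Of 7 germ-cell genes, Tfap2c (-2.46 ± 0.16), Dppa3 and Nanos3 were lower and Prdm1 (1.94 ± 0.50) higher; the sum was 46.3 to 66.3 CPM in FOXA2-positive against 87.0 to 144 CPM in FOXA2-negative RA libraries, 46.7 to 56.8 against 109 to 139 CPM in BMP4 and 47.8 to 56.1 against 135 to 197 CPM in LDN. Of 8 surface-ectoderm and epithelial genes 5 were lower and 1 higher, with sums of 385 to 473 CPM in FOXA2-positive against 621 to 723 CPM in FOXA2-negative RA libraries, 695 to 802 against 758 to 780 CPM in BMP4 and 439 to 509 against 767 to 902 CPM in LDN. Of 10 neural progenitor genes 3 were higher (Zbtb16, 1.80 ± 0.33; Ncam1, 0.61 ± 0.13; and Cdh2) and 0 lower, with sums of 636 to 699 CPM in FOXA2-positive against 424 to 509 CPM in FOXA2-negative RA libraries, 490 to 678 against 405 to 507 CPM in BMP4 and 1040 to 1140 against 658 to 746 CPM in LDN. Of 8 endoderm genes Sox17 (2.38 ± 0.32) and Foxa1 (2.54 ± 0.65) were higher (SE, adjusted p from 1.54e-05 to 0.0173, edgeR), and Afp had 0 counts in every FOXA2-positive library. Endoderm sums were 48.6 to 66.6 CPM in FOXA2-positive against 7.47 to 29.3 CPM in FOXA2-negative RA libraries, 46.6 to 109 against 13.2 to 43.4 CPM in BMP4 and 57.3 to 87.9 against 9.96 to 26.0 CPM in LDN. Of 5 trophoblast genes Ascl2 was lower (-3.41 ± 0.67), and of 4 mesoderm genes tested 0 were called by edgeR, with 0 at an unadjusted p under 0.05. Of the markers, Pax6, Ncam1, Sox1, Tfap2c, Tfap2a, Krt18, Krt19, Gata3 and Cdx2 were also called between treatments in at least 1 fraction. Of the 4 stress genes, Gadd45g was lower (-3.00 ± 0.29, adjusted p = 4.11e-07). The part of these cell types in the difference of the pluripotency genes was not tested.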

How the data were processed

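Groups were taken from library titles. Per the labels and the submitters' processing notes, which list HTSeq 0.11.2, cutadapt 1.18, UMI-tools 1.0.0, DESeq2 1.26.0 and the mm10 build, the authors deposited raw counts per Ensembl gene for each of 17 libraries, with duplicates removed by molecular identifier according to the table names. The aligner, annotation release, strand setting and multi-mapping rule are not given in the sources used. Summary lines, 49.3% to 54.4% of tallied reads, stayed out of library sizes.

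Counts were analysed with edgeR 4.0.16 in R 4.3.3. Genes kept by filterByExpr (minimum count 10, minimum total 15) were scaled by TMM and fitted in 1 robust quasi-likelihood model of 6 groups, with 11 residual degrees of freedom. A total of 13 contrasts were tested, with p-values adjusted by Benjamini-Hochberg over 17813 genes at a threshold of 0.05. Standard errors, being fold changes (log2) over the root of F, are approximate. Intervals and floors cover counting error only. Symbols, coordinates and exon lengths came from GENCODE M21. Correlations used log2 CPM with a prior count of 2. Contrasts were checked on counts simulated with the trended dispersion, which was chosen after a simulation with the common dispersion had been run.

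Alternatives were RLE scaling, DESeq2 1.42.0, no filter, a filter of 5 CPM in 2 libraries, only the groups compared, chromosome offsets, the replicate number as a block, omission of both RA libraries numbered 1, and of each library. Same-numbered fractions correlated, over 6669 genes, at 0.587, 0.238 and 0.277 in RA, so the numbers were taken to pair them there, from the data and not the labels. The pairs reached 0.0793 in BMP4 and 0.0615 in LDN, under the limit of 0.1. The 10 genes, the gene lists and the tests were chosen with earlier results of these data known. Genes named were the 10, Foxa2, up to 5 per list with the smallest p in the averaged contrast plus those called between treatments, and the 5 most correlated with Pou5f1, Nanog and Zfp42. Further names, such as Sox2, Sall4, Lin28a, Tdgf1 and Gm19553, were chosen after their values were seen. Of the further pluripotency genes, 1 is counted but not reported here by name.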

Additional observations from a re-analysis of the deposited data

How the results depend on the processing

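None of the values recomputed for the 10 genes changed direction past the threshold. With 1 library left out, 1002 of 1020 values kept their side of the threshold and 18 lost a call. Most of these values were not called in the main fit, so they had no call to lose. In RA and BMP4, Pou5f1 and Zfp42 kept their calls in all such fits. Nanog kept its call in 5 of 6 in RA and 4 of 6 in BMP4, Utf1 in 6 and 4, and Dppa5a in 6 and 2. Under the other settings 959 of 976 values kept their side of the threshold, 4 lost a call and 13 gained a call. Leaving out 1 library at a time gave 4 to 5 genes called between fractions in RA, 2 to 5 in BMP4, 2 to 5 in LDN and 8 to 9 on average over treatments. The BMP4 count was 2 without FOXA2-negative library 2, and 3 without FOXA2-positive library 1 or 2; the LDN count was 3 without FOXA2-positive library 2 and 2 without library 3. With no filter on low counts, 1 gene was called in FOXA2-positive cells for LDN against RA and 1 for BMP4 against LDN, Nanog in both (adjusted p = 0.0338 and 0.00782); the cause was not tested. Without the filter Klf2 was also called in all 3 treatments, and Dppa4 in RA and LDN (adjusted p = 0.0258 and 0.0214, edgeR). With the filter of 5 CPM in 2 libraries, Tfcp2l1 gained a call in RA (adjusted p = 0.049, edgeR). With a block for the replicate within each treatment the counts were 6 in RA, 4 in BMP4, 5 in LDN and 8 on average: Dppa4 gained its call in RA (0.0217), Utf1 lost it in BMP4 (0.098) and Klf2 on average (0.0951). A block across treatments changed no call. Without both RA libraries numbered 1, 4 genes were called in RA and 9 on average. Groups of 2 or 3 libraries and counts near 0 limit what can be said of Nanog, Esrrb and Klf4.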
